A study of Homo sapiens with 12 samples.

Results

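The genes described here are SOX2, SOX4, SOX6, SOX7, SOX9, SOX12, SOX13, SOX15, SOX17 and SOX21, which encode transcription factors of the SOX family. They were taken by gene symbol, whatever their level, and are 10 of the 23346 genes in the deposited table. All 10 passed the filter on low values, a mean of at least 0.1 RPKM over 12 samples, as did 16236 genes in all. SOX6 and SOX17 were near the limit of detection in one cell line and passed only through the other, so that a difference between the lines was fixed by the filter for these genes. RPKM is the number of reads mapped to a gene, scaled to the length of its transcript and to the depth of the library, so that levels can be compared between genes as well as between samples.

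The RNA came from 2 established human pancreatic adenocarcinoma lines, SW1990 and CFPAC-1. Each line was stained with GCTM-5, an antibody to a glycoprotein antigen of ductal and foregut progenitor epithelium, and sorted by flow cytometry into GCTM-5 positive and GCTM-5 negative cells, with 3 samples in each of the 4 groups. All 4 groups were monolayer cultures in serum-containing medium with no drug, transgene or deletion named in the labels, and cells of intermediate staining were excluded by the gates. Each line is a single model of its tumour type. According to the study's methods the samples came from triplicate sorts. The labels do not say what a shared replicate number marks, or whether the 3 samples of a group came from separate cultures. The main test did not pair positive with negative samples, and its p-values measure the spread between these samples.

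SOX proteins bind the minor groove of DNA through a high mobility group (HMG) domain related to that of SRY and bend it, and they usually act together with partner factors at nearby sites. The family is divided into groups by sequence: SOX2 belongs to group B1, SOX21 to B2, SOX4 and SOX12 to C, SOX6 and SOX13 to D, SOX9 to E, SOX7 and SOX17 to F, and SOX15 to G. In the pancreas SOX9 marks the multipotent progenitors and later the duct cells, SOX17 acts in the endoderm before the organ forms, and SOX4 takes part in endocrine differentiation and is a target of TGF-beta signalling in pancreatic cancer.

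The group C pair fell together in positive SW1990 cells, and the group B pair was higher in CFPAC-1 in both sorted populations. For these genes the 250 bases before the transcription start of the RefSeq model are shown, taken from the GRCh38.p14 table and read in the direction of the gene. SOX6 and SOX13 also had an entry in that table and are not shown. Capitals mark the CCAAT box, the GC box (GGGCGG) and the TATA box (TATAAA) on either strand, and no 2 matches overlapped. The E-box CACCTG, bound by SNAI and ZEB repressors, was searched as well and was in none of these windows, against 17.5% of 35116 RefSeq windows of this length.

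SOX4 (chr6:21593501-21593750, plus strand): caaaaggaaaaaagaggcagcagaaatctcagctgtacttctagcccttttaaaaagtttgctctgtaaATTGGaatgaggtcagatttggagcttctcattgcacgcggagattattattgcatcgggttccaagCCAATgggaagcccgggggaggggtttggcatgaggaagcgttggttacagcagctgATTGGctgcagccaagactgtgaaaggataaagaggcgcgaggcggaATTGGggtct
SOX12 (chr20:325302-325551, plus strand): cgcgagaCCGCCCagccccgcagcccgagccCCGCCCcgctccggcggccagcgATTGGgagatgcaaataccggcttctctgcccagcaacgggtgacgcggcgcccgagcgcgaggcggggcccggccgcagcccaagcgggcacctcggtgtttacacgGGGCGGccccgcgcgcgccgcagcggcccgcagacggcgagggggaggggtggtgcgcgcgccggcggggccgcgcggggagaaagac
SOX2 (chr3:181711675-181711924, plus strand): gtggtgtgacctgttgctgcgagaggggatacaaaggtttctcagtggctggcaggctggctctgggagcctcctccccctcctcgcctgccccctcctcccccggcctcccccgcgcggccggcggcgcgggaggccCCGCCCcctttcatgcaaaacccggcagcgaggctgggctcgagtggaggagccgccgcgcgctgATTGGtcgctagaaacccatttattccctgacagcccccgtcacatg
SOX21 (chr13:94712546-94712795, minus strand): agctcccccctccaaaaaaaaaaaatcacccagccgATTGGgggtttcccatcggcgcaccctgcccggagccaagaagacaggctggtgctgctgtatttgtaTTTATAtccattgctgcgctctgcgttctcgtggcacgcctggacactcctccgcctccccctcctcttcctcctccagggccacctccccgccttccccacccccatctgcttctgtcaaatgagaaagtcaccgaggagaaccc

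The SOX4 window held 4 CCAAT boxes, a number reached in 0.874% of all windows, and had a GC content of 48.8%. That of SOX12, the other group C gene, held 1 CCAAT box and 3 GC boxes, with 13.9% of all windows having at least 3 GC boxes. Its GC content of 79.2% was reached by 4.15% of windows. The SOX2 window held 1 CCAAT box and 1 GC box, and that of SOX21 held 1 CCAAT box and 1 TATA box, which 10.7% of windows have. A match describes the letters of a window and does not show that a factor bound there.

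Library totals, recovered from the values, ranged from 9969697 to 26159330 reads, with the lowest in positive CFPAC-1 replicate 3. FUT3, a fucosyltransferase of Lewis antigen synthesis, served as the check of the sort. The study had already reported more FUT3 in positive cells from these same data, so that this check is not independent. Its level rose from 1.13 ± 0.616 to 29.3 ± 8.3 RPKM in positive SW1990 cells (mean ± SD, n = 3) and from 0.457 ± 0.082 to 4.46 ± 1.12 RPKM in positive CFPAC-1 cells. In the test described below, 28.2% of all genes passed in SW1990, 11.3% higher and 16.9% lower in positive cells. In CFPAC-1 36.5% passed, 22.3% higher and 14.2% lower. Of 8 duct epithelium markers, 7 were higher in positive SW1990 cells (median log2 fold change 2.30). In positive CFPAC-1 cells 3 of these markers were higher and 2 lower (median 0.12). Their summed level was 1698 to 2013 RPKM in negative and 5160.5 to 5479.9 RPKM in positive SW1990 cells, and 7234 to 8180 and 7616 to 9383 RPKM in CFPAC-1. Of 8 proliferation genes, 7 were higher in positive CFPAC-1 cells (median 1.54) and 3 in positive SW1990 cells (median 0.41). Of 8 immediate early genes, which respond to dissociation, JUN fell in positive SW1990 cells (median -0.46) and ATF3, DUSP1 and JUNB fell in positive CFPAC-1 cells (median -0.94). A further list held 14 markers of immune, endothelial, fibroblast, acinar and endocrine cells. Of these, 3 (CPA1, GCG and SST) were at 0 in all samples and 5 passed the filter. Among those 5, CD14, CDH5 and LUM fell in positive SW1990 cells and CD14 in positive CFPAC-1 cells. PDGFRB was lower in positive SW1990 cells as well, with a ratio of mean levels of 0.0216. It passed the filter through negative SW1990 cells alone, so that its direction was fixed by the filter and is given without a test. The summed level of this list was 24.9 to 37.1 RPKM in negative and 4.05 to 5.23 in positive SW1990 cells, and 9.22 to 10.8 and 3.42 to 5.53 RPKM in CFPAC-1. PTPRC, which marks leukocytes, and CD3E, which marks T cells, had at most 3 reads in any sample, and DCN, which marks fibroblasts, at most 1. The part that these differences played in the SOX values was not tested.

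The lines differed in which SOX gene was most abundant. The summed level of the 10 genes was 244 ± 17.3 RPKM in negative SW1990 cells and 204 ± 4.44 RPKM in positive ones, and 304 ± 4.55 and 289 ± 8.24 RPKM in CFPAC-1. SOX7 made up 47.3% ± 2.34 of this sum in negative and 40.8% ± 1.2 in positive SW1990 cells, but 1.85% ± 0.12 and 1.49% ± 0.227 in CFPAC-1. SOX9 led in CFPAC-1, with 41.4% ± 1.41 in negative and 40.4% ± 2.34 in positive cells. SOX2 made up 13.2% ± 1.68 and 18.2% ± 2.54 of the sum in CFPAC-1 and at most 0.232% in any SW1990 sample.

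**Figure D1:**
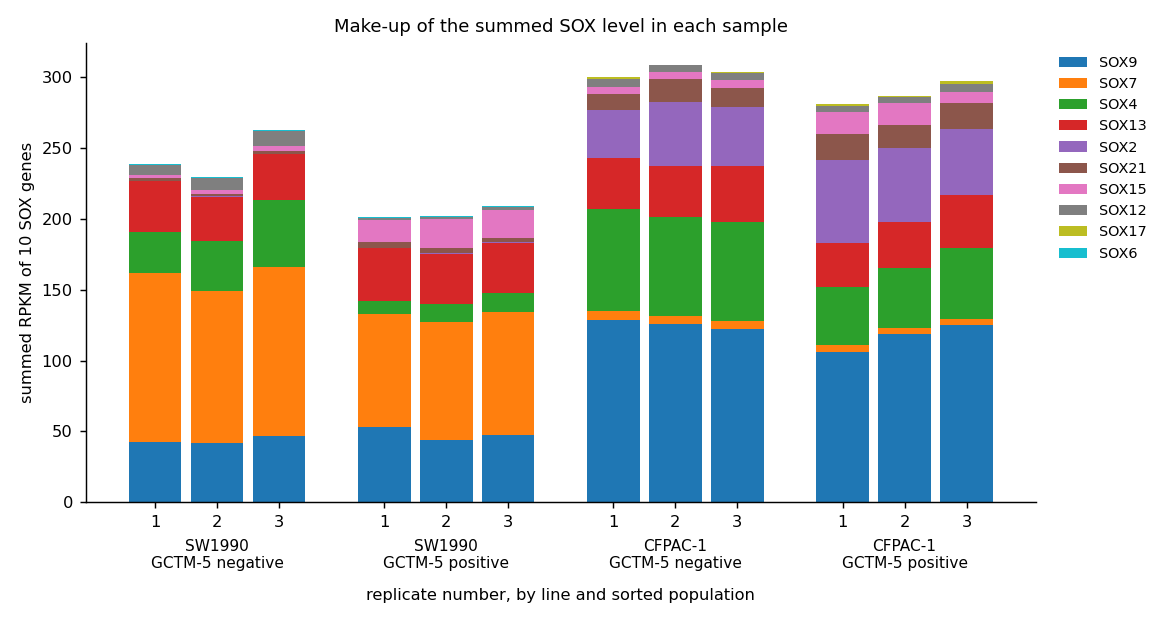
Bars show the summed RPKM of the 10 SOX genes in each of the 12 samples, by line and sorted population, with colours for the genes. SOX7 is the largest band in SW1990 and a thin one in CFPAC-1, where SOX9, SOX4 and SOX2 take up most of the bar.

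In negative SW1990 cells the order of levels was SOX7, SOX9, SOX4, SOX13, SOX12, SOX15, SOX21, SOX6, SOX2 and SOX17, and in this order the samples of SOX9 and SOX4, of SOX4 and SOX13, and of SOX6 and SOX2 overlapped. In positive SW1990 cells the order was SOX7, SOX9, SOX13, SOX15, SOX4, SOX21, SOX12, SOX6, SOX2 and SOX17, and no neighbours overlapped. In negative CFPAC-1 cells the order was SOX9, SOX4, SOX2, SOX13, SOX21, SOX7, SOX12, SOX15, SOX17 and SOX6. There SOX2 and SOX13 overlapped, as did SOX7 with SOX12 and SOX12 with SOX15. In positive CFPAC-1 cells it was SOX9, SOX2, SOX4, SOX13, SOX21, SOX15, SOX12, SOX7, SOX17 and SOX6, with the samples of SOX2 and SOX4 and those of SOX12 and SOX7 overlapping.

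**Figure D2:**
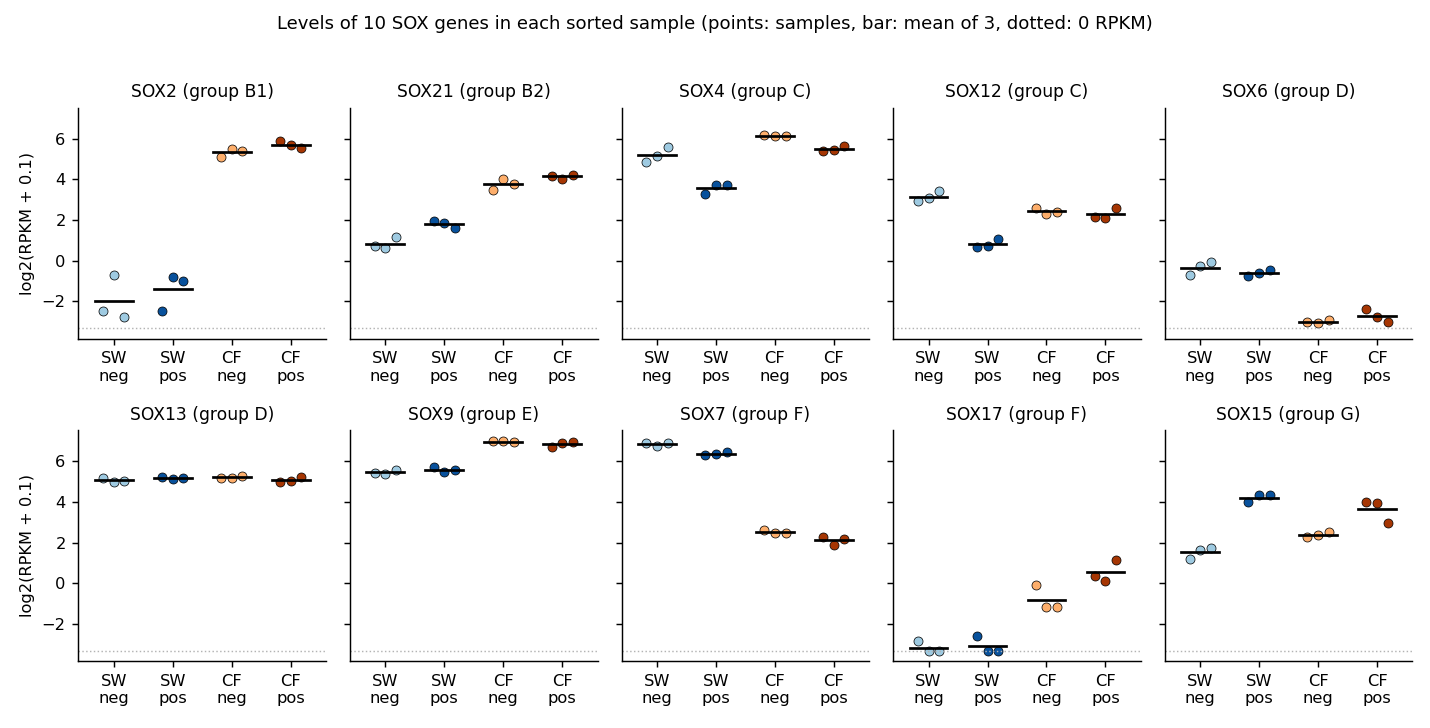
Each panel plots the level of a SOX gene on the log2(RPKM + 0.1) scale in 12 samples, with SW for SW1990 and CF for CFPAC-1, points for samples, bars for group means (n = 3) and a dotted line at 0 RPKM. SOX2 and SOX7 differ most between the lines. SOX15, SOX4 and SOX7 separate positive from negative cells in both lines, and SOX13 lies between 31.1 and 39.0 RPKM throughout.

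The first question was which SOX genes differed between the sorted populations of a line. In SW1990, 5 of the 10 genes passed the test, a limma fit of log2(RPKM + 0.1) with a Benjamini-Hochberg adjusted p under 0.05 over all 16236 genes, where 28.2% of all genes passed. SOX15 and SOX21 were higher in positive cells, as were 11.3% of all genes, and SOX4, SOX7 and SOX12 were lower, as were 16.9%. In CFPAC-1, 4 of the 10 passed, against 36.5% of all genes: SOX15 and SOX17 were higher, as were 22.3% of all genes, and SOX4 and SOX7 were lower, as were 14.2%. With the study's thresholds of over 2-fold and p under 0.01, applied here to the unadjusted limma p, 12.1% of all genes passed in SW1990 and 9.78% in CFPAC-1. They were met by SOX4, SOX12 and SOX15 in SW1990 and by SOX15 and SOX17 in CFPAC-1. The median log2 fold change of all genes was -0.04 in SW1990 and 0.05 in CFPAC-1. Higher values made up 61.1% of the genes that passed in CFPAC-1, and 47.8% when each sample was centred on its median. The sample values of positive and negative cells did not overlap for 5 of the 10 genes in SW1990, where 43.3% of all genes did not overlap, and for 5 in CFPAC-1, against 48.5%. With 3 samples against 3 an exact permutation test of a single gene cannot go below p = 0.1, so that the calls rest on the spread that limma estimates from all 4 groups and all genes. Cells of a kind that became rarer and cells that held less of an mRNA cannot be told apart in these bulk samples.

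**Figure D3:**
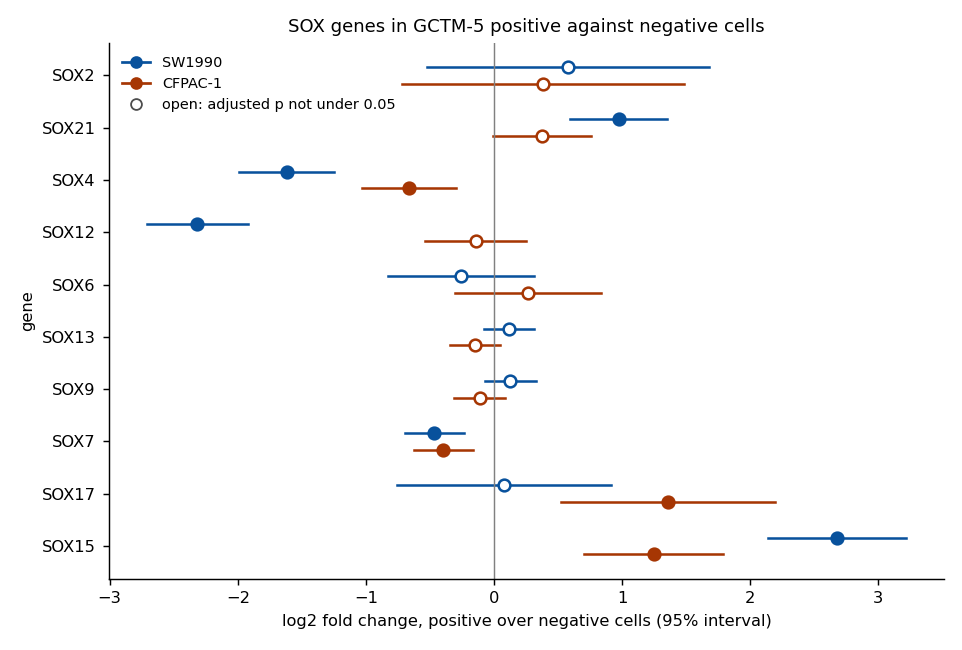
Points give the log2 fold change of each SOX gene in positive over negative cells, in SW1990 and in CFPAC-1, with 95% intervals from the limma fit (n = 3 samples a group), filled where the adjusted p was under 0.05. SOX15 lies right of 0 and SOX4 and SOX7 left of 0 in both lines, and SOX12 departs from 0 in SW1990 alone.

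The group C genes fell in positive cells, SOX4 in both lines and SOX12 in SW1990. SOX4 (chr6:21593982-21598850 on GRCh37, a single exon) was at 28.4, 35.2 and 47.5 RPKM in negative SW1990 cells and 9.66, 12.9 and 12.9 RPKM in positive ones. In CFPAC-1 it was at 72.4, 69.5 and 70.3 RPKM in negative cells and 41.4, 43.0 and 50.1 RPKM in positive ones. Every positive sample lay below every negative sample of its line. The fall was 1.62 on the log2 scale in SW1990 (SE 0.17, adjusted p = 1.96e-05) and 0.66 in CFPAC-1 (SE 0.17, adjusted p = 0.00968). It was larger in SW1990, with a difference of -0.96 between the lines (95% interval -1.48 to -0.44, adjusted p = 0.0112). The median of this difference over all genes was -0.15, and 26.9% of all genes passed its test, 9.16% with a higher and 17.8% with a lower value in SW1990. The share of higher values among them was 34.0%, and 49.99% after median centring, which brought the median to about 0.

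SOX12 (chr20:306196-310868 on GRCh37), which overlaps with SOX4 in function during development, also has a single exon. It was at 7.46, 8.24 and 10.5 RPKM in negative SW1990 cells and 1.51, 1.53 and 1.96 RPKM in positive ones, with 120 to 161 reads in each positive sample. The CFPAC-1 values were 5.95, 4.86 and 5.11 RPKM in negative cells and 4.39, 4.13 and 6.0 RPKM in positive ones. The populations stood well apart in SW1990 and overlapped in CFPAC-1. SOX12 fell by 2.32 on the log2 scale in SW1990 (SE 0.18, adjusted p = 2.18e-06), the ratio of mean levels being 0.191, and ranked 522 of 16236 genes by size of change. In CFPAC-1 the change was -0.14 (95% interval -0.54 to 0.25, adjusted p = 0.571). The difference between the lines was -2.17 (95% interval -2.73 to -1.61, adjusted p = 0.000111).

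Genes that group C factors are known to activate were described beside them. Of 5 listed, 4 passed the filter, and in positive SW1990 cells TEAD2, a partner of YAP, fell by 3.06 on the log2 scale (adjusted p = 0.000142) and TUBB3, a neuronal tubulin, by 1.25 (adjusted p = 7.7e-05). EZH2 and STMN1 were at 0.08 and -0.13 there. In positive CFPAC-1 cells EZH2, a histone methyltransferase, rose by 1.15 (adjusted p = 0.000471) and STMN1, a microtubule regulator, by 0.91 (adjusted p = 9.43e-05), and neither TEAD2 nor TUBB3 passed. EZH2 and STMN1 are also abundant in dividing cells, and the proliferation list rose in the same samples, a link that was not tested. The list's median was -0.69 in SW1990 and 0.49 in CFPAC-1.

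The TGF-beta pathway acts upstream of SOX4, and most of its listed genes were lower in positive SW1990 cells. All 11 listed ligands, receptors and effectors passed the filter. In positive SW1990 cells 0 were higher and 8 lower, against 11.3% and 16.9% of all genes, with a median of -0.70. The inhibitory SMAD7, itself a target of the pathway, fell by 2.32 on the log2 scale (adjusted p = 2.96e-07) and the ligand TGFB1 by 1.36 (adjusted p = 1.21e-05). In positive CFPAC-1 cells 1 was higher and 4 lower, against 22.3% and 14.2% of all genes, with a median of -0.18. TGFB2, a second ligand, fell by 1.11 in SW1990 (adjusted p = 1.7e-05) and by 1.12 in CFPAC-1 (adjusted p = 4.73e-05), while the receptor TGFBR1 rose by 1.23 in CFPAC-1 (adjusted p = 0.000401). SMAD4, the common mediator, was at 0 reads in all 6 CFPAC-1 samples and at 5.23 ± 0.0417 to 6.10 ± 0.301 RPKM in the SW1990 groups.

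SOX15 showed the largest rise of the 10 genes in SW1990. It is the single member of group G (chr17:7491496-7493412 on GRCh37), is related to the B1 factors and is known from trophoblast and muscle. Its level was 2.23, 3.02 and 3.29 RPKM in negative SW1990 cells and 15.8, 20.2 and 20.0 RPKM in positive ones. In CFPAC-1 it was 4.79, 5.09 and 5.58 RPKM in negative cells and 16.0, 15.3 and 7.63 RPKM in positive ones. The populations did not overlap in either line, although the third positive CFPAC-1 sample, which is the shallowest library and held 106 SOX15 reads, lay nearer to the negative samples. SOX15 rose by 2.68 in SW1990 (SE 0.25, adjusted p = 8.36e-06) and by 1.25 in CFPAC-1 (SE 0.25, adjusted p = 0.00252), and the rise was larger in SW1990 by 1.43 (95% interval 0.67 to 2.20, adjusted p = 0.0103).

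The group B genes had values above 0 for the sort in both lines, and the test was passed by SOX21 in SW1990 alone. SOX21, a repressor that counteracts the B1 factors during neurogenesis (chr13:95361876-95364799 on GRCh37), was at 1.55, 1.44 and 2.16 RPKM in negative SW1990 cells and 3.78, 3.54 and 2.97 RPKM in positive ones. Its CFPAC-1 values were 11.1, 16.3 and 13.6 RPKM in negative cells and 17.9, 16.3 and 18.5 RPKM in positive ones. The populations separated in SW1990, while in CFPAC-1 the lowest positive and the highest negative sample were level. The log2 fold change was 0.97 in SW1990 (SE 0.17, adjusted p = 0.00122) and 0.37 in CFPAC-1 (95% interval -0.01 to 0.75, adjusted p = 0.114), and the difference of 0.60 between them did not pass (adjusted p = 0.0936).

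SOX2, the pluripotency and foregut factor (chr3:181429713-181432224 on GRCh37, a single exon inside the SOX2-OT transcript), was at 34.0, 44.9 and 42.0 RPKM in negative CFPAC-1 cells and 58.4, 52.2 and 46.7 RPKM in positive ones. In SW1990 it had 4, 30 and 2 reads in negative and 4, 20 and 18 reads in positive cells, or 0.045 to 0.513 RPKM. The positive samples were all higher in CFPAC-1 and overlapped with the negative ones in SW1990. SOX2 did not pass in either line, with 0.38 in CFPAC-1 (95% interval -0.72 to 1.48, adjusted p = 0.588) and 0.58 in SW1990 (95% interval -0.52 to 1.68, adjusted p = 0.446). The spread behind both intervals includes the few reads of the SW1990 samples, and with each line fitted alone the adjusted p in CFPAC-1 was 0.0825. Without negative SW1990 replicate 2, which held 30 reads, the change in SW1990 was 1.22 with an adjusted p of 0.0435.

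The SW1990 reads of SOX2 were set against those of other genes that are abundant in CFPAC-1. For 16 other genes above 30 RPKM in every CFPAC-1 sample and with a median under 0.5 RPKM in SW1990, the median level in an SW1990 sample was 0 to 0.0521% of that in CFPAC-1. SOX2 was at 0.0971 to 1.11%, with negative replicate 2 and positive replicates 2 and 3 the highest. The 16 genes were chosen for a low SW1990 level, and 7 to 9 of them were at 0 in a sample. Their spread is not given, so that SOX2 cannot be placed among them. The source of its SW1990 reads was not tested.

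Of 11 listed SOX2 partners and squamous genes, 8 passed the filter. Positive SW1990 cells had 3 of these higher and 1 lower (median 0.09), against 11.3% and 16.9% of all genes. Positive CFPAC-1 cells had 2 higher and 1 lower (median 0.03), against 22.3% and 14.2%. The gene lower in SW1990, KRT14, passed the filter through negative SW1990 cells alone. KRT6A, a keratin of activated stratified epithelium, rose by 3.64 in SW1990 (adjusted p = 2.52e-07) and by 4.60 in CFPAC-1 (adjusted p = 8.57e-07). POU5F1, the partner of SOX2 in pluripotent cells, rose by 1.76 in SW1990 (adjusted p = 0.0053), from 5 to 24 reads in negative to 42 to 55 in positive samples, and reads of its pseudogenes may add to its count. NANOG was at 0 in all samples.

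The group F genes, known from endothelium and endoderm, moved in opposite directions in CFPAC-1. SOX7 (chr8:10581278-10588021 on GRCh37) was at 119, 107 and 119 RPKM in negative SW1990 cells and 79.5, 83.2 and 87.5 RPKM in positive ones. In CFPAC-1 its level was 5.97, 5.53 and 5.40 RPKM in negative cells and 4.81, 3.61 and 4.43 RPKM in positive ones. Every positive sample was below every negative one in both lines. The fall was 0.47 on the log2 scale in SW1990 (SE 0.11, adjusted p = 0.00562) and 0.40 in CFPAC-1 (SE 0.11, adjusted p = 0.0122), and the difference of -0.07 did not pass (95% interval -0.39 to 0.26, adjusted p = 0.769). With each line fitted alone, the adjusted p in CFPAC-1 was 0.0787.

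SOX17 (chr8:55370495-55373452 on GRCh37) had 38, 18 and 16 reads in negative and 74, 43 and 50 reads in positive CFPAC-1 cells, or 0.831, 0.350 and 0.342 against 1.20, 0.975 and 2.13 RPKM. All positive samples were higher. The rise was 1.36 (SE 0.38, adjusted p = 0.0161), but the call was lost without negative replicate 2 (1.19, adjusted p = 0.0642), negative replicate 3 (1.18, adjusted p = 0.0665) or positive replicate 3 (1.06, adjusted p = 0.0534), with each line fitted alone (adjusted p = 0.0573) and with a pseudocount of 0.01 (adjusted p = 0.206). In SW1990 at most 3 reads were seen in any sample, and no fold change is given there.

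SOX18, the third group F gene and not one of the 10, was at 4.07 ± 0.607 RPKM in negative SW1990 cells and 2.28 ± 0.558 RPKM in positive ones (adjusted p = 0.126) and had at most 4 reads in any CFPAC-1 sample. CDH5, the endothelial cadherin, was at 15.6 ± 1.82 RPKM in negative SW1990 cells and 1.33 ± 0.255 RPKM in positive ones and had at most 1 read in CFPAC-1. PECAM1, another endothelial marker, was at 0.717 ± 0.211 and 0.363 ± 0.129 RPKM in the SW1990 populations (adjusted p = 0.0886), and VWF at 0.202 ± 0.0468 and 0.0664 ± 0.0133 RPKM. Whether CDH5 and SOX7 were linked in SW1990 was not tested.

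SOX9 did not differ between sorted populations beyond the spread of the samples. The gene (chr17:70117161-70122557 on GRCh37, 3 exons) was at 42.8, 42.0 and 46.8 RPKM in negative SW1990 cells and 53.1, 43.8 and 47.2 RPKM in positive ones. In CFPAC-1 its level was 129, 126 and 122 RPKM in negative cells and 106, 119 and 125 RPKM in positive ones. The populations overlapped in both lines. The log2 fold change was 0.13 in SW1990 (95% interval -0.07 to 0.33, adjusted p = 0.344) and -0.11 in CFPAC-1 (95% interval -0.31 to 0.09, adjusted p = 0.371). The difference between the lines was 0.24 (95% interval -0.04 to 0.52, adjusted p = 0.197).

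Genes that work with SOX9 in pancreatic progenitors and ducts were described as a list. Of 26 listed genes 22 passed the filter. In positive SW1990 cells 4 were higher and 8 lower, against 11.3% and 16.9% of all genes, with a median of -0.24. HHEX, a homeobox factor of the early pancreatic bud, fell by 4.11 (adjusted p = 1.48e-08), SPP1, a secreted phosphoprotein of ducts, by 3.88 (adjusted p = 6.61e-06), and the nuclear receptor NR5A2 by 2.05 (adjusted p = 1.63e-05). FGFR2, a receptor for mesenchymal FGF signals that maintain SOX9, rose by 3.04 (adjusted p = 2.94e-06). In positive CFPAC-1 cells 5 were higher and 4 lower, against 22.3% and 14.2% of all genes, with a median of 0.12. The Notch ligand JAG1 rose by 1.46 (adjusted p = 4.12e-05) and FGFR2 by 0.90 (adjusted p = 0.0142), while SPP1 fell by 1.35 (adjusted p = 0.0104) and NKX6-1 by 1.13 (adjusted p = 0.0107).

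Of 11 cartilage genes that SOX9 activates with group D factors, 6 passed the filter. In positive SW1990 cells 2 were lower and 0 higher (median -0.17), against 16.9% and 11.3% of all genes. HAPLN1, a link protein of cartilage matrix, fell by 2.01 (adjusted p = 0.000265) and MATN3 by 1.12 (adjusted p = 0.00124). In CFPAC-1 0 of the 6 passed (median -0.20), against 36.5% of all genes.

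Neither group D gene passed the test for the sort. SOX13 (chr1:204042243-204096871 on GRCh37), a Wnt pathway modulator in other tissues, was at 36.6, 31.3 and 32.4 RPKM in negative SW1990 cells and 37.3, 35.5 and 35.8 RPKM in positive ones, and at 36.1, 36.4 and 39.0 against 31.1, 32.5 and 37.1 RPKM in CFPAC-1. The values overlapped in both lines, with log2 fold changes of 0.12 (adjusted p = 0.369) and -0.15 (adjusted p = 0.209). When each sample was centred on its median, SOX13 passed in CFPAC-1 (-0.25, adjusted p = 0.0469), as it did without positive CFPAC-1 replicate 3 (-0.22, adjusted p = 0.0485).

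SOX6 (chr11:15987995-16761138 on GRCh37) had 98, 160 and 140 reads in negative SW1990 cells and 90, 89 and 103 in positive ones, or 0.495 to 0.845 RPKM. In CFPAC-1 it had 4, 4 and 6 against 22, 8 and 2 reads. Neither line separated the populations, and the changes of -0.25 in SW1990 (adjusted p = 0.524) and 0.27 in CFPAC-1 (adjusted p = 0.456) did not pass.

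Group D, E and F factors are known to bind or restrain beta-catenin and its TCF partners, and these genes were described as a list. Of 15, 12 passed the filter. In positive SW1990 cells 3 were higher and 6 lower (median -0.64), against 11.3% and 16.9% of all genes. In CFPAC-1 1 was higher and 3 lower (median 0.09), against 22.3% and 14.2%. AXIN2, a feedback target of the pathway, fell by 3.48 in SW1990 (adjusted p = 8.33e-07) and by 1.38 in CFPAC-1 (adjusted p = 0.00109). DKK1, a secreted inhibitor, fell by 1.35 in SW1990 (adjusted p = 9.17e-06) and rose by 1.19 in CFPAC-1 (adjusted p = 6.16e-05), with a difference of -2.54 between the lines (adjusted p = 5.44e-06). LEF1, a TCF partner, fell by 1.22 in SW1990 (adjusted p = 0.0121).

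**Figure D4:**
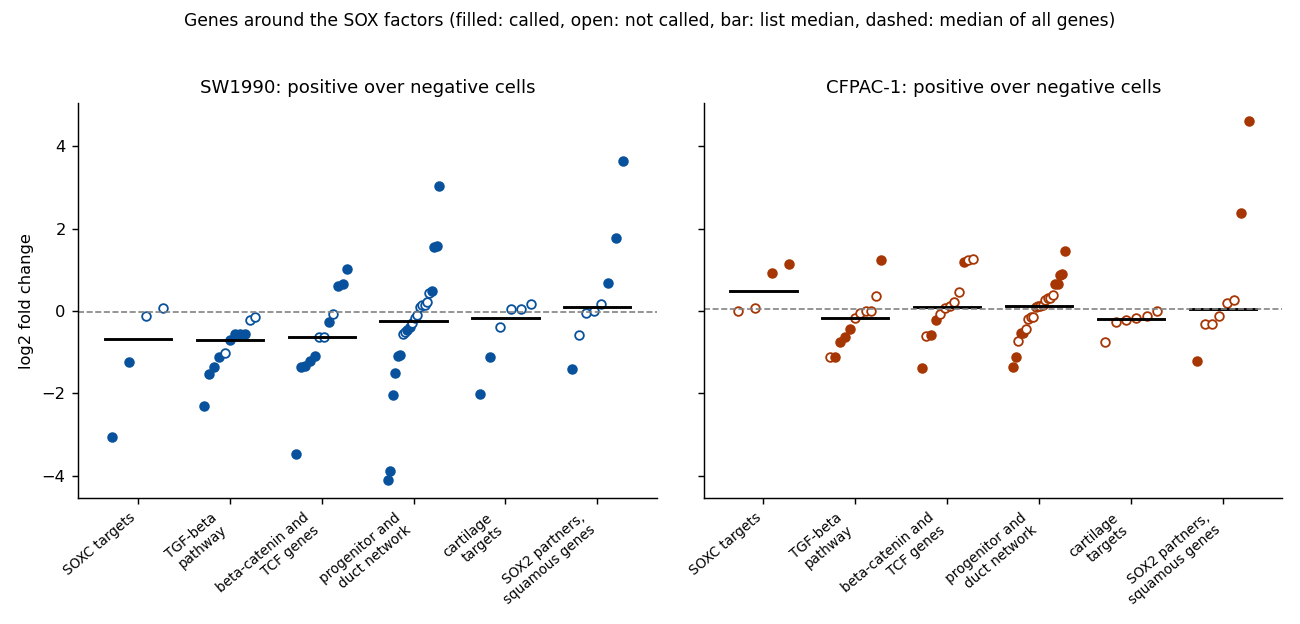
Each point is the log2 fold change of a listed gene that passed the filter, in positive over negative cells of SW1990 (left) and CFPAC-1 (right), with a bar at the median of the list and a dashed line at the median of all genes. Of the TGF-beta list, 8 of 11 genes were lower and 0 higher in SW1990, against 16.9% and 11.3% of all genes. The median of the SOXC targets was -0.69 in SW1990 and 0.49 in CFPAC-1.

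The table held 9 further SOX genes, of which SOX1, SOX11 and SOX14 were at 0 in all samples, SOX3, SOX8 and SOX10 had at most 2 reads in any sample, and SOX5, SOX18 and SOX30 passed the filter. SOX5, the third group D gene, had 19 to 45 reads in negative SW1990 cells and at most 2 in positive ones, so that it was at least 9.21-fold lower. In CFPAC-1 it had 29 to 57 reads in negative and 3 or 4 in positive cells. Its mean was 0.326 RPKM in negative and 0.0163 RPKM in positive SW1990 cells, and 0.466 and 0.0515 RPKM in CFPAC-1. SOX5 thus passed the filter through the negative cells alone, so that the direction of its change was fixed by the filter and is given without a test. Every positive sample lay below every negative sample of its line. Of 5 listed noncoding RNAs at SOX loci, SOX2-OT was in the table. It had 4 to 8 reads in negative SW1990 cells and 0 in positive ones (adjusted p = 0.0344). In CFPAC-1 it had 18 to 32 against 6 to 32 reads. At a mean of 0.0511 RPKM in SW1990 and 0.438 RPKM in CFPAC-1, it passed the filter through CFPAC-1 alone. Its SW1990 test thus rests on values near the limit of detection.

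The second question was how the lines differed. SW1990 was compared with CFPAC-1 within negative and within positive cells, comparisons that use the same samples as those of the sort and that describe these 2 lines, since line is not replicated. In negative cells 9 of the 10 genes passed, where 68.9% of all genes passed. SOX6, SOX7 and SOX12 were higher in SW1990, as were 40.7% of all genes, and SOX2, SOX4, SOX9, SOX15, SOX17 and SOX21 were lower, as were 28.2%. In positive cells 8 passed, against 62.3% of all genes: SOX6 and SOX7 were higher in SW1990, as were 32.9% of all genes, and SOX2, SOX4, SOX9, SOX12, SOX17 and SOX21 were lower, as were 29.3%. Without SOX6 and SOX17, whose difference the filter fixed, 7 of 8 passed in negative and 6 of 8 in positive cells, against 67.8% and 61.3% of the 14841 genes with a mean of at least 0.1 RPKM in each line. The samples of the lines did not overlap for 9 genes in negative cells and 8 in positive cells, against 75.2% and 63.9% of all genes. The median difference of all genes was 0.19 in negative and 0.06 in positive cells.

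**Figure D5:**
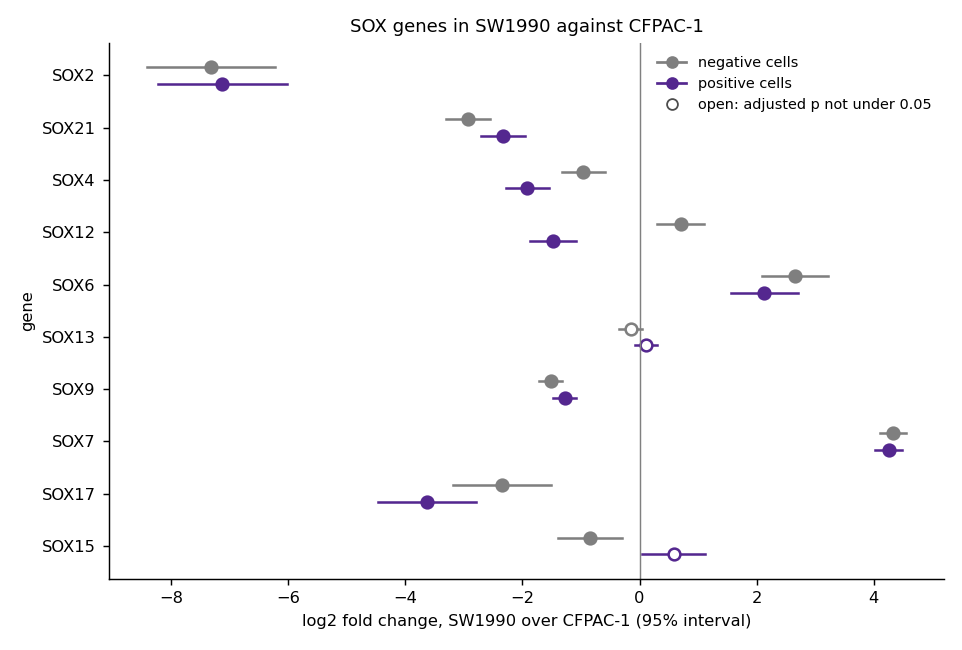
Points give the log2 fold change of each SOX gene in SW1990 over CFPAC-1, in negative and in positive cells, with 95% intervals from the limma fit (n = 3 samples a group), filled where the adjusted p was under 0.05. SOX2 lies farthest left and SOX7 farthest right in both populations, and SOX12 changes sides between them.

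SOX7 was 20.5-fold higher in SW1990 in negative and 19.5-fold higher in positive cells by the ratio of mean RPKM, with log2 differences of 4.33 (SE 0.11, adjusted p = 2.6e-11) and 4.26 (SE 0.11, adjusted p = 3.39e-11). In SW1990 it stood above 95.2 to 97.7% of the genes detected in a sample, and in CFPAC-1 above 40.2 to 50.9%. SOX17, its group F relative, went the other way: its SW1990 level was at least 8.05-fold below CFPAC-1 in negative and at least 20.2-fold below it in positive cells, taking 3 reads per library as the floor. SOX18, at a mean of 0.0978 RPKM in CFPAC-1 and 3.18 RPKM in SW1990, also passed the filter through SW1990 alone, so that its difference was fixed by the filter and is given without a test. SOX30 was lower in SW1990, by 1.18 in negative (adjusted p = 0.00928) and 1.73 in positive cells (adjusted p = 0.000945), on 48 reads or fewer a sample.

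SOX2 differed most. Its mean level was 190-fold lower in SW1990 in negative and 165-fold lower in positive cells, with log2 differences of -7.32 (SE 0.50, adjusted p = 1.04e-07) and -7.13 (SE 0.50, adjusted p = 2e-07), which rank 67 and 54 of 16236 genes by size. The fold in negative cells rested on SW1990 replicate 2 with its 30 reads, and was 658-fold without it. SOX21 was lower in SW1990 as well, by 2.93 in negative (SE 0.17, adjusted p = 3.02e-08) and 2.33 in positive cells (SE 0.17, adjusted p = 3.22e-07). The B1 and B2 genes were thus both higher in CFPAC-1. Of the SOX2 list, 8 genes passed the filter. In negative cells 4 were higher and 3 lower in SW1990 (median 1.28), against 40.7% and 28.2% of all genes. In positive cells 5 were higher and 1 lower (median 1.22), against 32.9% and 29.3%. KRT14, BCL11A and TP63 of this list passed the filter through one line alone. The basal keratin KRT5 was higher in SW1990 in negative cells, by 5.32 on the log2 scale (adjusted p = 4.24e-07). The squamous factor TP63, at 3.65 RPKM in SW1990 and 0.0184 RPKM in CFPAC-1, passed the filter through SW1990 alone and is given without a test.

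SOX9 was lower in SW1990 by 1.52 on the log2 scale in negative (SE 0.09, adjusted p = 3.38e-08) and 1.28 in positive cells (SE 0.09, adjusted p = 2.21e-07). Of the 22 progenitor and duct genes, 13 were lower and 5 higher in SW1990 in negative cells (median -0.76). All genes were lower in 28.2% and higher in 40.7% there. In positive cells 13 were lower and 3 higher (median -0.70), against 29.3% and 32.9% of all genes. GATA4 and PROX1 are among 3 of these 22 that passed the filter through one line alone. Of the cartilage genes, MATN3, COL9A3 and COL9A2 were higher in SW1990 in both populations, the direction opposite to SOX9. HAPLN1 had 0 reads in all CFPAC-1 samples and passed the filter through SW1990 alone.

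SOX4 was lower in SW1990, by 0.96 in negative (adjusted p = 0.000266) and by 1.92 in positive cells (adjusted p = 1.24e-06). SOX12 turned direction: it was higher in SW1990 by 0.70 in negative cells (SE 0.18, adjusted p = 0.00432), and in positive cells it fell by 1.47 below CFPAC-1 (SE 0.18, adjusted p = 2.06e-05). SOX15 was lower in SW1990 by 0.85 in negative cells (adjusted p = 0.00889), while the value of 0.58 in positive cells did not pass (95% interval 0.04 to 1.13, adjusted p = 0.0573). It did so without positive CFPAC-1 replicate 1 (0.77, adjusted p = 0.0247) or replicate 2 (0.74, adjusted p = 0.0356) and with a pseudocount of 1 (0.55, adjusted p = 0.0491). SOX6 was higher in SW1990 by 2.65 in negative and 2.13 in positive cells. SOX13 did not pass in either population, with values of -0.15 (95% interval -0.35 to 0.04) and 0.11 (95% interval -0.08 to 0.30), but passed in negative cells after median centring (-0.34, adjusted p = 0.00454) and with voom on the recovered reads (-0.32, adjusted p = 0.00709).

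The genes whose levels followed SOX9 and SOX7 most closely over the 12 samples were listed as a description, among 13267 genes with a mean of at least 1 RPKM. Pearson's r with SOX9 on the log2 scale was 0.994 for PROM1, the CD133 antigen, and 0.993 for TMEM25, SGPP2, RNF128 and TM4SF4. For SOX7 it was 0.998 for LRP3 and 0.997 for TEKT4P2, SH3RF3, GNG4 and ZNF71. The 12 points fall into 2 lines, and samples of a line share it, so that a high value can come from the difference between the lines alone.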

How the data were processed

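RNA from 12 samples (3 in each of 4 groups) was sequenced, and the authors deposited 1 table of RPKM values for 23346 genes. According to the study's methods the reads were aligned to GRCh37 with QuasR, and the submitters' processing notes name bcl2fastq. The annotation, the use of strand, the treatment of reads with several matches and whether reads or pairs were counted are not given in the sources used here. Labels and methods name different library kits and media.

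Read counts could be recovered from the values, whole to within 0.01 read for each of the 19654 detected genes, with library totals of 9969697 to 26159330. These reads gave the depth, and the main test used log2(RPKM + 0.1), on which scale fold changes of low genes are understated. Genes with a mean of at least 0.1 RPKM (16236) entered a limma 3.58.1 fit (R 4.3.3) with 4 group means and an intensity trend, and p-values were adjusted by Benjamini-Hochberg over all of them in each of 5 comparisons. A gene was called at an adjusted p under 0.05. The study's own tool was not used, and its thresholds were an alternative.

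The SOX genes and all lists were chosen with earlier results of these data known. Of each list, the 4 called genes with the largest change in a comparison could be named, with every further SOX gene above the filter. PTPRC, CD3E, DCN, VWF, PECAM1, CPA1, GCG, SST, SMAD4, NANOG, GATA4 and PROX1 were named outside this rule where a count or a marker needed it. Promoter windows came from the RefSeq table on GRCh38.p14, which held 6 of the 10 genes and 27305 genes in all. Tables and figures were made with Python 3.11.15, pandas 2.3.3, numpy 2.4.6 and matplotlib 3.10.9. Alternatives were other pseudocounts, filters, scaling, trend and call rule, separate fits, voom on the recovered reads, a replicate block and leaving out each sample.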

Additional observations from a re-analysis of the deposited data

Results flagged for a closer look

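For 3 of the 10 SOX genes the change between GCTM-5 positive and negative cells differed between SW1990 and CFPAC-1 in the limma test of the difference itself, which 26.9% of all genes passed. The log2 fold change of SOX12 was lower in SW1990, with a difference of -2.17 (adjusted p = 0.000111), from -2.32 in SW1990 and -0.14 in CFPAC-1. That of SOX15 was higher in SW1990, with a difference of 1.43 (adjusted p = 0.0103), from 2.68 and 1.25. That of SOX4 was lower in SW1990, with a difference of -0.96 (adjusted p = 0.0112), from -1.62 and -0.66. All positive samples moved in the same direction in both lines for SOX15 and SOX4, so that for these the lines differed in size and not in sign.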

How the results depend on the processing

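The number of SOX genes called was the same as reported under 20 of 22 alternatives for SW1990, 15 of 22 for CFPAC-1, 15 of 21 for the difference between the lines, and 18 of 22 for each comparison of the lines. With the study's thresholds of over 2-fold and p under 0.01, applied to the unadjusted limma p, it was 3 in SW1990 and 2 in CFPAC-1, and the genes called among all fell from 4581 to 1961, 5929 to 1588, 4374 to 2301, 11181 to 5993 and 10113 to 4627 in the 5 comparisons. With each line fitted alone it was 2 in CFPAC-1, and with median centring it was 5 for the difference, SOX13 (adjusted p = 0.0321) and SOX21 (adjusted p = 0.0445) being added. Leaving out 1 sample gave 5 to 6 genes in SW1990, 3 to 4 in CFPAC-1, 3 to 4 for the difference, 9 in negative and 8 to 9 in positive cells of the lines. Changes of sign were seen among values that had not passed: SOX17 in SW1990 ranged from -0.17 to 0.24 without 1 sample, SOX2 in the difference was -0.25 with a pseudocount of 1 and -0.20 to 0.84 without 1 sample, and SOX7 in the difference was 0.0788 after median centring, 0.0177 with voom and -0.185 to 0.0173 without 1 sample. SOX21 in the difference passed without negative SW1990 replicate 3 (0.77, adjusted p = 0.0287), SOX17 without negative CFPAC-1 replicate 1 (-1.64, adjusted p = 0.04), and SOX13 without positive CFPAC-1 replicate 3 (0.34, adjusted p = 0.034). The cause was not tested. In their deviations from the group mean, same-numbered positive and negative samples correlated at 0.18, 0.016 and 0.12 in SW1990 and -0.020, 0.0013 and -0.059 in CFPAC-1. Those with different numbers ranged from -0.25 to 0.16 in SW1990 and from -0.033 to 0.042 in CFPAC-1. With 3 samples a group these values cannot show whether the numbers mark pairs, and the main test took none. The replicate block left the counts at 5, 4, 3, 9 and 8. Depth limited SOX17 and SOX2 in SW1990 and SOX6 in CFPAC-1, which had 30 reads or fewer in any sample.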
